A study of Mus musculus with 80 samples.

Results

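The bins described here are 2-kb stretches of the autosomes at which the H3K9me2 signal of mouse embryonic stem cells (ESCs) was lower in long-term 2i (LT2i) than in serum. A bin was taken when the mean log2 value of the serum libraries was 4 or more and the mean of serum minus the mean of LT2i was 2 or more. This selected 22988 bins of the 687852 autosomal bins that passed the serum minimum (eligible bins, 3.34%), out of 995960 autosomal and 1026637 listed bins. Dimethylation of lysine 9 on histone H3 (H3K9me2) is a repressive mark laid down mainly by the EHMT1 and EHMT2 methyltransferases, and it covers broad domains of silent chromatin while active promoters and gene bodies carry little of it. The protein UHRF1 reads methylated H3K9 and brings the maintenance DNA methyltransferase DNMT1 to newly copied DNA.

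All cells were the wild-type ESC line E14, which is a single line. Serum cells grew in medium with fetal calf serum and LIF, and 2i cells in serum-free N2B27 medium with LIF, the MEK inhibitor PD0325901 and the GSK3 inhibitor CHIR99021. For H3K9me2 ChIP-seq there were 2 bound libraries and 1 input in each of 3 conditions: serum, 2i for 24 h, and LT2i, whose length in 2i the labels do not give. RNA-seq held 3 libraries each in serum and at 6, 24 and 72 h of 2i, so no RNA was measured in LT2i cells. The ChIP-seq values rest on 14396552 to 23785128 reads in bins per library, and the depth of the RNA-seq libraries is unknown. ChIP-seq values are reads relative to the whole library, so a loss shared by the whole genome would not show in them. The 8 ESC markers stood at 5.80 to 8.29 in serum (mean log2 RNA value, n = 3) and at 2.81 to 8.49 at 72 h, where Lin28a was the lowest, and Pou5f1 was at 8.29 and 8.21. The 8 fibroblast markers summed to 3.05 to 3.39 per library in serum and 2.83 to 3.06 at 72 h, against 9.95 to 10.4 at 72 h for the ESC markers. The summed level of 4 neural markers was 5.56 to 5.62 in serum and 4.802 to 5.05 at 72 h, that of 4 mesoderm markers 1.83 to 2.14 and 1.60 to 1.68, that of 6 primitive endoderm markers 2.14 to 2.26 and 1.84 to 2.11, and that of 5 trophoblast markers 5.95 to 6.16 and 6.00 to 6.40. Single markers moved more, with changes at 72 h of -4.31 in Neurod1, 2.39 in Tfap2c and 2.18 in Pdgfrb. Of the 8 ESC markers, 4 were lower and 2 higher at 72 h (limma, adjusted p under 0.05). Among them Lin28a changed by -3.91, Utf1 by -3.44 and Nanog by 1.72. Of the 3 fibroblast markers tested, Pdgfrb was higher and 2 were lower. The part of these markers in the results was not tested.

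Some of the bins lay at an annotated gene start. Windows of 300 bases around RefSeq starts (250 before and 50 after the start, build GRCm38.p6) fell wholly inside a member bin in 440 cases, of 408 genes. These windows were poor in CG dinucleotides, with a median of 4, against 3 for the 8058 windows in eligible bins and 7 for all 28057 windows that lie within 1 bin. The share of windows with 10 or more CG was 7.5% in member bins, 6.73% in eligible bins and 43.4% in all. The motif GGGCGG, searched on both strands, stood in 11.4% of windows in member bins, 8.3% of those in eligible bins and 35.6% of all, and TATAAA in 13.4%, 20.9% and 13.6%. The windows of Fam53b, Gstm3, Slc6a9 and Ampd3 were chosen after their values were seen, and are shown because the bin at the start lost H3K9me2 and the RNA rose by 1 or more at 72 h. CG dinucleotides are in capitals, and each sequence runs 5′ to 3′ on the strand of the gene.
Fam53b, chr7:132776867-132777166, minus strand: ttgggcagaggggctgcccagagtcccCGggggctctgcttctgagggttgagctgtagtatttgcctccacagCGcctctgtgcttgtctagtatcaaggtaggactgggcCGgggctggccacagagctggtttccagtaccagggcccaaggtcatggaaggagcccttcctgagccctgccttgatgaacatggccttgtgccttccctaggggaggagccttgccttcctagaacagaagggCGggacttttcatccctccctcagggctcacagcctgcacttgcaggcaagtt
Gstm3, chr3:107969125-107969424, minus strand: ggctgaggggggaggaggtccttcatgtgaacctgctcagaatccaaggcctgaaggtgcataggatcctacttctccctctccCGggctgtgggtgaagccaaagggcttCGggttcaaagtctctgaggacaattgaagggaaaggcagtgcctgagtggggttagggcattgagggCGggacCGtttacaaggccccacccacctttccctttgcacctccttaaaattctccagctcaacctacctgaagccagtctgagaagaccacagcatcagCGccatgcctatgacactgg
Slc6a9, chr4:117855297-117855596, plus strand: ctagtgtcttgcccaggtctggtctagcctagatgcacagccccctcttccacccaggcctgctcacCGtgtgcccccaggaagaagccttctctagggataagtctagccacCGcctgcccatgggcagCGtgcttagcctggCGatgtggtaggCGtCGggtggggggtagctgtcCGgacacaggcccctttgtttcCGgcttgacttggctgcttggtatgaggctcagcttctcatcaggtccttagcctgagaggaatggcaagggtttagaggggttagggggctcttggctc
Ampd3, chr7:110772354-110772653, plus strand: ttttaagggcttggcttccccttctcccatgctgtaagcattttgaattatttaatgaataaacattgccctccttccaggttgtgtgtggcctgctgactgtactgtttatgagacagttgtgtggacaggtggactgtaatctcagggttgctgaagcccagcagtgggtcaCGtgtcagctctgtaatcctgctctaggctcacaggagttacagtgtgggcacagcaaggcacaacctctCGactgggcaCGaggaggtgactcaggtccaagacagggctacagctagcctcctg
The 4 windows held 4, 5, 8 and 3 CG dinucleotides in that order. GGGCGG was found in those of Fam53b and Gstm3, TATAAA in none of the 4, and CACGTG in that of Ampd3. The windows of Fam53b, Slc6a9 and Ampd3 lie inside the spans of the RNA table and mark starts other than the outermost one.

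The bins behind these windows showed different courses at 24 h. The bin at Ampd3, an AMP deaminase gene, stood at 4.46 and 4.59 in serum, 3.03 and 3.24 at 24 h, and 0.36 and 0.42 in LT2i, with inputs of 5.03, 4 and 4.98. The bin at Gstm3, a glutathione transferase gene, stood at 4.29 and 4.43 in serum, 4.51 and 4.24 at 24 h, and 2.94 and 0.57 in LT2i. Both 24 h libraries were below both serum libraries at Ampd3, and the 24 h and serum libraries overlapped at Gstm3. The input at Ampd3 was also lower at 24 h than in serum, at 4 against 5.03, so the fall was not seen in the bound libraries alone. The inputs at Gstm3 were 4.44 in serum, 4.64 at 24 h and 3.76 in LT2i. At Slc6a9, which encodes a glycine transporter, serum gave 4.54 and 3.93, 24 h gave 3.03 and 3.65, and LT2i gave 1.36 and 1.57. The bin at Fam53b gave 4.94 and 4.35 in serum, 4.71 and 3.65 at 24 h, and 1.36 and 0.57 in LT2i. Inputs in serum, at 24 h and in LT2i were 4.73, 4.52 and 4.68 at Slc6a9 and 5.18, 5.04 and 5.05 at Fam53b. The RNA changes at 72 h, which had to be 1 or more for a gene to be shown, were 2.44 in Fam53b, 2.10 in Gstm3, 1.32 in Slc6a9 and 1.20 in Ampd3. Serum means were -0.78 in Fam53b, 0.22 in Gstm3, -0.58 in Slc6a9 and 0.06 in Ampd3, and the genes below 0 passed the filter on low RNA values only through 2i.

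Over all 22988 bins, the medians were 4.54 and 4.43 in the serum libraries, 4.03 and 4.11 at 24 h, and 1.94 and 1.57 in LT2i. The median of serum minus LT2i was 2.47 on the log2 scale, a value the selection itself fixes at 2 or more. The eligible bins as a whole had medians of 4.82 and 4.87 in serum and 4.82 and 4.82 in LT2i. The selected bins lay lower in serum than the eligible bins, and their serum signal stood below input in most cases. The bound value exceeded the input in 31.9% of the bins in serum, 15.2% at 24 h and 0% in LT2i, against 72.3%, 68.1% and 62.5% of eligible bins. The median of bound minus input was -0.25 in serum, -0.64 at 24 h and -2.71 in LT2i. Most of these bins thus went from a value at or somewhat below input to one far below it. A bin called lost is one that met the rule, whether or not it stood above input in serum. In LT2i, 124 of the bins (0.539%) held 0 reads in both libraries. At 3 reads over both libraries, the limit that a count of 0 allows, all 124 stayed past the difference of 2, and this limit covers counting error only.

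**Figure D1:**
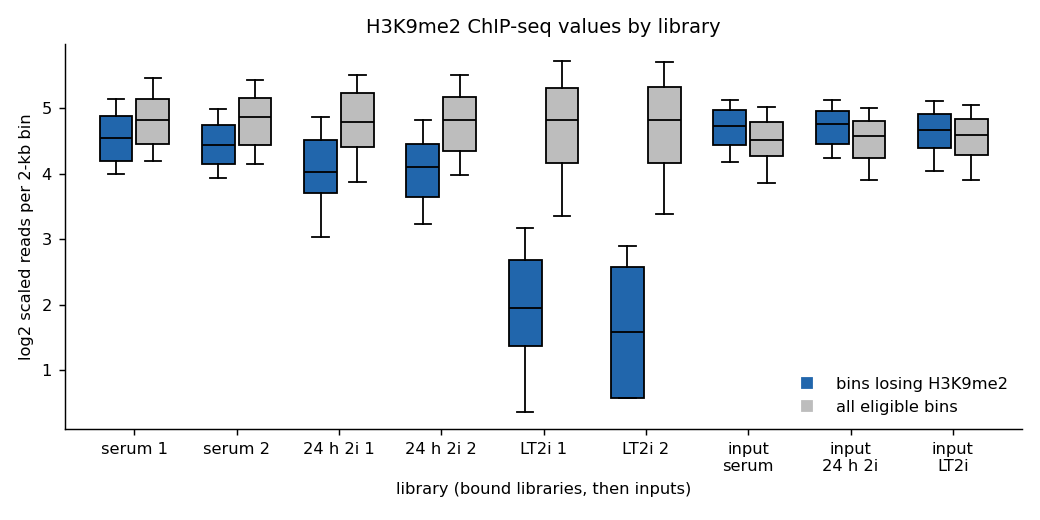
Log2 scaled reads per 2-kb bin in the 6 bound and 3 input libraries, for the 22988 bins losing H3K9me2 (blue) and all 687852 eligible bins (grey). Lines in the boxes are medians, boxes span the 25th to the 75th percentile and whiskers the range from the 10th to the 90th percentile. The blue medians lie near 4.5 in serum, 4.0 to 4.1 at 24 h and 1.6 to 1.9 in LT2i, while the input medians stay between 4.68 and 4.75.

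Median input values of the bins were 4.73 in serum, 4.75 at 24 h and 4.68 in LT2i, and the median of LT2i minus serum input was -0.06. The LT2i input was lower than the serum input by 0.5 or more in 18.4% of the bins, against 15.2% of eligible bins, and higher by 0.5 or more in 11.4%, against 16.7%. When the same rule was applied to the inputs, 67 of 830086 bins passed (0.00807%). Only bins with every input at 3 or more were listed, and the lowest LT2i input was 3.17. Bound LT2i values reached down to 0.21. The listing thus holds down the share in the inputs, which cannot be set beside that of the bound libraries. The opposite rule on the bound libraries, an LT2i mean of 4 or more and a gain of 2 or more, found 430 of 582102 bins (0.0739%). With 1 input per condition these differences have no replicate check.

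The size of the loss was smaller in libraries that had not chosen the bins. Bins were chosen on 1 serum and 1 LT2i library, and the difference was then read in the other pair, for each of the 4 ways of pairing. The median held-out difference was 1.47 to 1.82, where the median of the choosing pair was 2.52 to 2.63 and that of all eligible bins -0.00 to 0.04. The held-out difference was above 0 in 95.0% to 96.8% of chosen bins and reached 2 in 29.5% to 44.0% of them, against 2.91% to 4.14% of eligible bins. With 1 library against 1 these values have no test.

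The 24 h libraries, which had no part in the choice, stood close to serum. The median of 24 h minus serum was -0.43, but serum entered the rule. When the bins were chosen on 1 serum library and both LT2i libraries and read against the other serum library, the median was -0.18 and -0.34, against -0.02 and -0.02 for eligible bins. In that reading 8.43% and 12.5% of the bins were lower at 24 h by 1 or more, against 2.17% and 2.33% of eligible bins. Against the serum mean that chose the bins, the 24 h value was lower than serum by 1 or more in 3074 bins (13.4%), where 1.94% of eligible bins fell that far. Both 24 h libraries lay below both serum libraries in 49.3% of the bins, against 21% of eligible bins. The 24 h mean was nearer to serum than to LT2i in 93.8% of the bins, against 63.3% of eligible bins, and both LT2i libraries lay below both 24 h libraries in 94.4%, against 26.7%. The shares against the serum mean or both serum libraries, and those against LT2i, use values that chose the bins and are a description only.

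The bins with the largest differences were nearly empty in LT2i. The largest difference, 4.95, was at chr1:73944001-73946000 (GRCm38) inside Tns1, which encodes the focal adhesion protein tensin 1. This bin held 42 and 25 reads in serum, 15 and 6 at 24 h, 0 and 1 in LT2i, and 22, 21 and 15 in the inputs. A bin inside Fnip2, a folliculin-interacting protein gene, at chr3:79480001-79482000 held 29 and 30 reads in serum, 19 and 22 at 24 h, and 0 and 1 in LT2i. The bin at chr14:25468001-25470000 in Zmiz1 held 31 and 20 reads in serum, 12 and 10 at 24 h and 0 and 0 in LT2i, at least 14.95-fold lower in LT2i with a floor of 3 reads over both libraries. The other 7 of the 10 largest differences, 4.58 to 4.75, lay in Fam53b (2 adjacent bins), Phf2, Galnt2, Bcas3, Disc1 and a region with a RefSeq gene model, Gm32770, but no span in the RNA table. Each of these 7 held 1 read in each LT2i library and 20 to 35 in each serum library.

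Bins near the thresholds look like their neighbours outside. The 3 bins just inside the difference of 2 had differences of 2.00, 2.00 and 2.00 and the 3 just outside 2.00, 2.00 and 2.00, which differ only in the third decimal. At the serum minimum, the 3 bins inside stood at 4.00 in serum and differed by 2.13, 2.54 and 2.24, and the 3 outside stood at 3.99 and differed by 2.23, 2.02 and 3.10. In 9747 eligible bins the difference missed 2 by up to 0.25, and 7620 bins with the difference of 2 missed the serum minimum by under 0.25.

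Most of the bins stood alone or in short runs. They formed 17882 runs of adjacent bins, 14473 of them a single bin, and 37.0% of the bins were in runs of 2 or more. The longest run, 13 bins or 26 kb at chr13:73778001-73804000, lay in Slc12a7, a potassium-chloride cotransporter gene. Runs of 11 bins lay in Rgs3, a regulator of G protein signalling, and in Rasgef1a, which encodes an exchange factor for Ras-family proteins. Runs of 10 bins lay in H2afy, which encodes the histone variant macroH2A1, in the phosphodiesterase gene Pde8a, across Lrig1 and Slc25a26, and in Vps53.

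These long runs differed in their 24 h values. The run in Slc12a7 averaged 4.84 and 4.68 in serum, 4.82 and 4.59 at 24 h, and 2.01 and 1.66 in LT2i, from 314 and 274, 240 and 206, and 50 and 30 reads. The run in H2afy, at chr13:56074001-56094000, averaged 4.54 and 4.36 in serum, 3.48 and 3.47 at 24 h, and 1.29 and 0.84 in LT2i, from 195 and 168, 76 and 86, and 23 and 12 reads. The run at Lrig1 averaged 5.03 and 4.69 in serum, 4.18 and 3.85 at 24 h, and 2.20 and 1.68 in LT2i. At Slc12a7 the 24 h libraries overlapped those of serum, and at H2afy and Lrig1 they lay between serum and LT2i without overlap. The mean of 24 h minus serum was -0.05 at Slc12a7, -0.25 at Rgs3, -0.32 at Rasgef1a, -0.49 at Pde8a, -0.58 at Vps53, -0.84 at Lrig1 and -0.98 at H2afy.

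The loss did not stop at the edges of the bins. Non-member bins next to a member lost 1.40 and 1.41 on average, and those 20 kb away lost 1.08 on either side. At 50 kb the mean loss of non-members was 0.97 on either side, and toward higher coordinates it was 0.88 at 100 kb and 0.67 at 500 kb. Over all autosomal bins the mean of serum minus LT2i was 0.33. Mean serum values fell from 4.49 in the members to 3.80 at 50 kb, while mean LT2i values rose from 1.89 to 2.65. The rule asks for a high serum and a low LT2i value in the central bin, and this sets part of the contrast with its neighbours.

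**Figure D2:**
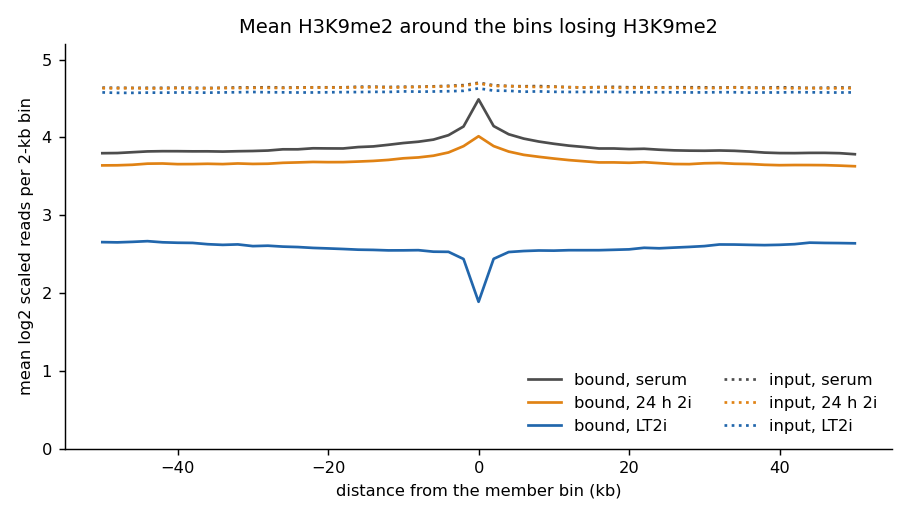
Mean log2 scaled reads per 2-kb bin against the distance from the member bin in kb, for bound libraries (solid, means of 2) and inputs (dotted, 1 each). At distance 0 serum stands at 4.49, 24 h at 4.01 and LT2i at 1.89. At -50 kb the values are 3.80, 3.64 and 2.65, and the inputs stay at 4.57 to 4.70 throughout.

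The bins were concentrated in and near genes. A gene span of the RNA table overlapped 72.3% of them, against 39.4% of eligible bins. Only 2.65% lay farther than 100 kb from any span, against 29.0% of eligible bins, and the median distance to a gene start was 28739 bp against 85044 bp. A gene start lay inside 1.39% of the bins and 0.803% of eligible bins. Along the gene, divided into 10 equal parts, 4.72% of eligible bins in the part at the start were members and 7.38% in the part at the end. By chromosome, the share of eligible bins that were members ran from 1.80% on chromosome 3 to 6.59% on chromosome 11.

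Olfactory receptor, vomeronasal receptor and protocadherin genes, taken by the start of the gene symbol, held few of the bins. A family taken in this way can hold genes inside and outside clusters. Members made up 7 of 1312 eligible bins (0.534%) in Olfr genes, 1 of 504 (0.198%) in Vmn genes and 3 of 1252 (0.24%) in Pcdh genes. In all genes with a serum RNA level under -4, 1.52% of eligible bins were members. Zinc finger (Zfp) genes held 121 of 2010 eligible bins (6.02%) and gene models named Gm with a number 469 of 11221 (4.18%), beside 6.13% of eligible bins in all gene spans. No member lay in the 2 eligible bins of Mir genes or the 5 of Hist genes.

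Among eligible bins, the share that lost H3K9me2 rose with the RNA level of the gene in serum. RNA levels are corrected for gene length and can be set side by side. The share was 1.52% in genes with a serum level under -4, 3.32% from -4 to under -2, 6.41% from -2 to under 0, 4773 of 43386 eligible bins from 0 to under 2, 16.9% from 2 to under 4 and 21.1% at 4 or more, beside 1.53% outside gene spans. Median serum H3K9me2 of the eligible bins fell over the same classes from 4.92 to 4.43, and the median LT2i value from 4.92 to 3.37. Median inputs of these classes ran from 4.52 to 4.797 in serum and from 4.59 to 4.76 in LT2i. Averaged over all bins of a gene, eligible or not, the loss did not rise with serum RNA. Across 8296 genes with 5 or more bins that passed the filter on low RNA values, mean loss and serum RNA had a Spearman's rho of -0.13.

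**Figure D3:**
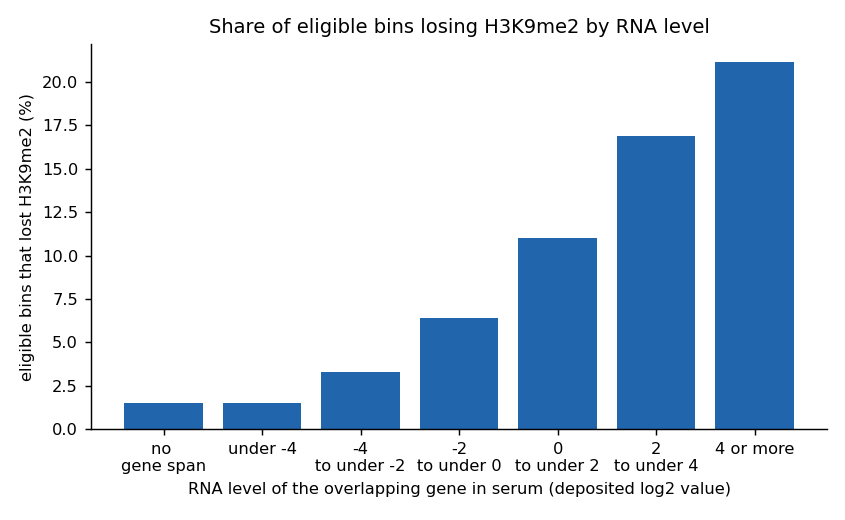
Percent of eligible bins that lost H3K9me2, by the serum RNA level (log2) of the gene whose span overlaps the bin, with bins outside gene spans at the left. The bars rise from 1.52% in genes under -4 to 21.1% in genes at 4 or more.

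Next, the RNA of genes that overlap the bins was followed after transfer to 2i. These were 5164 of 24483 autosomal genes (21.1%), of which 2371 held 1 member bin and 370 held 10 or more, and 2884 passed the filter on low RNA values and were tested with limma. A gene below 0 in serum passed only where it was higher in 2i, so the counts of higher genes include genes that had to rise. At 72 h, 993 of the 2884 were higher than in serum (34.4%, background 24.5% of all 11376 genes tested) and 626 lower (21.7%, background 26%), where 50.5% of all genes were called in either direction. The median change was 0.11, against -0.01 over all genes tested. At 24 h the counts were 925 higher (32.1%, background 33.6%) and 963 lower (33.4%, background 29.1%), beside 62.7% of all genes called. At 6 h 417 were higher (14.5%, background 8.24%) and 136 lower (4.72%, background 6.01%). Leaving out replicate 1 or 2 in every group lowered the counts at 6 h to 117 and 103 higher and to 42 and 38 lower. It lowered those at 72 h to 704 and 677 higher and to 370 and 249 lower. Those at 24 h became 609 and 605 higher and 528 and 647 lower. Without replicate 3 the counts were 403 higher and 129 lower at 6 h, 973 and 1087 at 24 h, and 1035 and 739 at 72 h. In bulk samples a change in the number of cells that express a gene and a change in RNA per cell cannot be told apart.

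Genes more fully covered by the bins were more often higher at 72 h. Of the 1134 tested genes with 1 member bin, 29.9% were higher and 26.2% lower, and of the 289 with 10 or more, 45.7% were higher and 12.1% lower. Among genes with 8 or more eligible bins, 234 tested genes had lost 50% or more of them, and 118 were higher (50.4%) and 30 lower (12.8%). The 556 genes of that size with no member bin held 107 higher (19.2%) and 218 lower (39.2%). At 24 h the split by number of member bins gave 32.8% higher and 31.7% lower among genes with 1 and 31.1% and 32.9% among those with 10 or more. The split by share of eligible bins at 24 h gave 35.0% higher and 29.1% lower among the 234 genes, against 23.9% and 42.8% of the 556 with no member bin. At 72 h gene size was held in classes as well. With 10 to 19 eligible bins, 53.2% of the 111 genes with 50% or more lost were higher and 10.8% lower, against 17.5% and 40.8% of the 228 with no member. With 20 to 49 eligible bins these shares were 54.1% and 13.1% of 61 genes, against 19.8% and 38.3% of 162. With 50 or more eligible bins, 4 of 13 genes with 50% or more lost were higher (30.8%) and 2 lower (15.4%), against 22.2% and 38.3% of 81 with no member and 35.0% and 21.7% of 263 with fewer lost.

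Read from the side of the RNA, 25.2% of the eligible bins of genes higher by 1 or more at 72 h were members. The share was 15.6% in genes without a call and 6.35% in genes lower by 1 or more. The order was the same within genes at a serum RNA level of 0 to under 2 (28.0%, 12.1% and 5.59%) and of 2 to under 4 (31.3%, 2323 of 11598 bins and 5.83%). At a level of 4 or more the shares were 45.6%, 22.1% and 12.8%, the first from 57 of 125 eligible bins. Genes higher by under 1 at 72 h stood at 15.2% over all levels, slightly below genes without a call. They stood at 12.3% at a level of 0 to under 2, 21.1% at 2 to under 4 and 20.7% at 4 or more. Under 0 they stood at 7.56%, where genes without a call stood at 9.38%. Genes lower by under 1 stood at 12.4% over all levels and at 22.4% at a level of 4 or more. For calls at 6 h the shares were 30.1%, 14.5% and 7.45%, and at 24 h 20.5%, 15.9% and 11.6%. Spans over 1 Mb were left out of these shares. Across 8296 tested genes with 5 or more bins, the mean loss over the gene and the RNA change had a Spearman's rho of 0.17 (6 h), 0.07 (24 h) and 0.21 (72 h). This is a description across genes, which share the same libraries and are not independent.

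**Figure D4:**
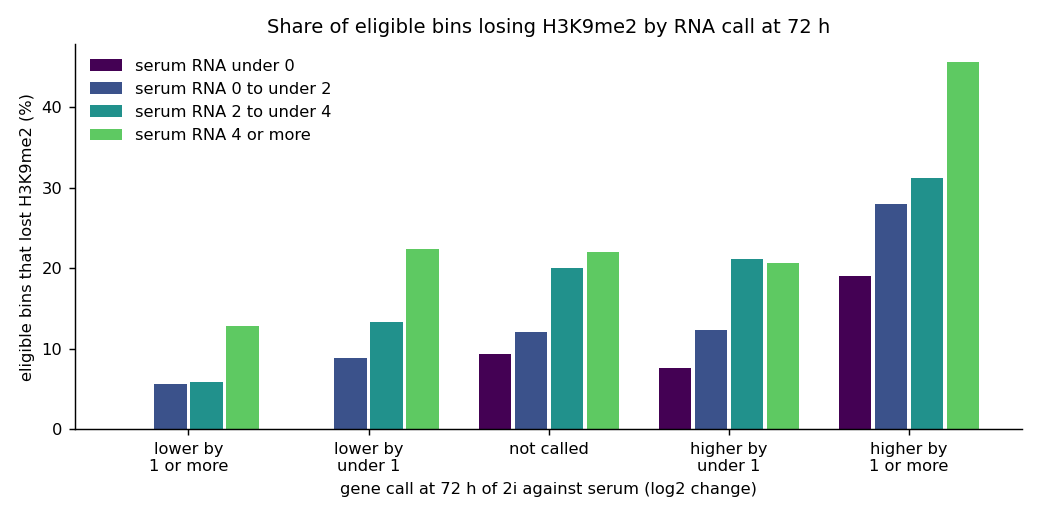
Percent of eligible bins that lost H3K9me2 in genes grouped by their RNA call at 72 h against serum, with a bar for each class of serum RNA level. In the 3 classes with serum RNA of 0 or more the bar is highest for genes higher by 1 or more (28.0% to 45.6%) and lowest for genes lower by 1 or more (5.59% to 12.8%). The class with serum RNA under 0 has no bars on the lower side, since the filter on the mean over all groups keeps such genes mainly where they are higher in 2i.

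Genes whose start lay within 5 kb of a member bin numbered 2126, of which 714 were tested. At 72 h 318 of them were higher (44.5%, background 24.5%) and 110 lower (15.4%, background 26%), with a median change of 0.35. At 24 h 332 were higher (46.5%, background 33.6%) and 125 lower (17.5%, background 29.1%). With a change of 1 or more also required, 180 were higher (25.2%, background 9.72%) and 47 lower (6.58%, background 8.19%) at 72 h. Of the 408 genes with a RefSeq start window inside a member bin, 35 were tested. At 72 h 20 of these were higher (57.1%, background 24.5%) and 1 lower (2.86%, background 26%). Of the 329 tested genes with such a window in an eligible bin, 104 were higher (31.6%) and 85 lower (25.8%). Genes whose serum RNA was under the limit of the filter passed only where their RNA was higher after transfer. The counts of higher genes in this paragraph thus include genes that had to rise, and their part in the counts was not tested.

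The tested genes with the largest rises at 72 h among those that overlap a member bin were Cdx1, Mobp, Stra8, Aqp3, Lrrc15, Dmgdh, Rasgef1a and Fxyd2, with log2 changes of 3.91 to 4.89. Apart from Stra8 and Aqp3 these genes had a mean below 0 in serum and passed the filter on low values only through their levels in 2i. Their calls at 72 h also passed when no filter was used. Stra8, a retinoic acid-induced gene of meiotic entry, was at 1.58, 1.32 and 1.47 in serum and 6.16, 6.24 and 6.10 at 72 h (log2 change 4.71, SE 0.14, adjusted p = 1.07e-09), with 2 of 3 eligible bins lost. Aqp3, a water and glycerol channel gene, was at 2.19, 2.32 and 2.48 in serum and 6.82, 6.87 and 6.56 at 72 h (4.42, SE 0.13, adjusted p = 1.25e-09), with both eligible bins lost. Serum and 72 h libraries did not overlap for either gene. Dmgdh, a mitochondrial enzyme gene of choline breakdown, had lost 9 of 24 eligible bins and changed by 0.88 at 24 h and 4.15 at 72 h. Cdx1, a caudal-type homeobox gene, had lost 2 of 6 and was higher by 3.57 as early as 6 h. Mobp, a myelin protein gene, had lost 4 of 8 and changed by 4.74. Lrrc15 had lost 1 of 6, and Fxyd2, a regulator of the sodium pump, its only eligible bin.

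Rasgef1a joined a large rise in RNA to nearly complete loss, with 11 of 12 eligible bins lost. Its RNA stood at -2.76, -2.49 and -1.40 in serum. It stood at 0.21, 0.06 and 0.26 after 6 h, at 0.58, 0.75 and 0.84 after 24 h and at 1.65, 1.67 and 1.80 after 72 h. The change at 72 h was 3.92 (SE 0.28, adjusted p = 7.17e-07), and every 2i library was above every serum library. H3K9me2 over its bins averaged 4.55 in serum, 4.21 at 24 h and 2.04 in LT2i.

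The largest falls, Etv4, Dnmt3l, Zfp423, Phf15, Celf4, Lphn2, Lef1 and Trh, were -5.69 to -3.18. Most of these genes held a single member bin: 1 of 1 eligible bin in Etv4, an ETS factor downstream of ERK signalling, 1 of 1 in Dnmt3l and in Trh, 1 of 26 in Lef1, 1 of 71 in Lphn2, 1 of 73 in Zfp423 and 1 of 103 in Celf4. Phf15 held 3 of 13. Dnmt3l, a cofactor of de novo DNA methyltransferases, was at 6.59, 6.60 and 6.66 in serum, 3.14, 3.22 and 2.70 at 24 h, and 0.80, 1.11 and 0.99 at 72 h (log2 change -5.65, SE 0.13, adjusted p = 2.59e-10). H3K9me2 over all its bins averaged 2.99 in serum, 3.36 at 24 h and 2.56 in LT2i.

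The 8 largest changes at 72 h among genes with a start within 5 kb of a member bin were Dnmt3l, Mobp, 6030455H03Rik, Aqp3, Dmgdh, Phf15, Rasgef1a and Fxyd2. Of these, 6 were higher and 2, Dnmt3l and Phf15, lower. The gene model 6030455H03Rik held no member bin and had one within 2548 bp of its start. It also passed the filter through 2i, with RNA at -1.43, -2.74 and -1.13 in serum and 2.63, 3.31 and 2.14 at 72 h (4.46, SE 0.44, adjusted p = 9.43e-06).

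The genes with the most member bins were large. Leading the count were Gm20388 with 188 and Fgfr2 with 117, but the spans that the RNA table gives them run over many other genes, so these bins cannot be assigned to them. Ttc28 followed with 83 of 125 eligible bins, Slc39a11 with 61 of 147, Mad1l1 with 58 of 106, Ralgps1 with 49 of 98 and Med27 with 47 of 67. Arid1b, Gli2, Prdm16 and Rptor held 45 each. Slc39a11, a zinc transporter gene, was at 0.51, 0.84 and 0.55 in serum and 3.12, 3.38 and 3.02 at 72 h (log2 change 2.54, SE 0.14, adjusted p = 7.24e-08). Mad1l1, a spindle checkpoint gene, changed by -0.02 at 72 h (SE 0.13, adjusted p = 0.918), and Med27, a Mediator subunit gene, by 0.06 (SE 0.13, adjusted p = 0.72). Gli2, a transcription factor of Hedgehog signalling, changed by -0.34 (adjusted p = 0.357), Arid1b, a subunit of the BAF remodelling complex, by 0.37 (adjusted p = 0.254) and Ralgps1 by 0.36 (adjusted p = 0.298). Rptor, a subunit of the mTORC1 kinase complex, changed by -0.72 (adjusted p = 0.00428), and without replicate 2 Rptor changed by -0.67 and missed the threshold (adjusted p = 0.082). Ttc28 and Prdm16 were under the filter on RNA and were not tested, with mean levels of -0.96 and -0.99 in serum and 1.09 and 0.17 at 72 h.

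In some genes nearly all eligible bins were lost, and the following were chosen after their values were seen. Among 5791 genes with 8 or more eligible bins, 279 had lost 50% or more of them and 4 had lost them all. Those 4 were Lrig1 (32 bins), Ampd3 (14), Tbc1d16 (12) and Gpr56 (8). Lrig1, which encodes a membrane protein that restrains growth factor receptors, stood at 0.50, 0.41 and 0.71 in serum. After 6 h of 2i it stood at 1.46, 1.51 and 1.83, after 24 h at 0.83, 1.01 and 1.10, and after 72 h at 2.11, 2.22 and 2.18. Its change at 72 h was 1.63 (SE 0.13, adjusted p = 2.3e-06), and serum did not overlap any time in 2i. Ampd3 rose by 1.20 (SE 0.19, adjusted p = 0.00031) and Gpr56, an adhesion receptor gene, by 1.19 (SE 0.22, adjusted p = 0.00103). Tbc1d16 changed by -0.37 (SE 0.15, adjusted p = 0.0583).

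Further examples with nearly complete loss were Tfcp2l1, H2afy and Slc12a7. Tfcp2l1, a transcription factor of the naive pluripotency network, had lost 11 of 12 eligible bins. Serum libraries gave RNA levels of 4.57, 4.60 and 4.84. Those in 2i gave 6.02, 6.09 and 6.29 after 6 h, 4.63, 5.00 and 5.66 after 24 h, and 6.45, 5.98 and 6.63 after 72 h. The 24 h libraries overlapped those of serum, and the change passed the test at 6 h (1.46, adjusted p = 0.00156) and at 72 h (1.68, adjusted p = 0.000139). H2afy had lost 17 of 19 and went from 2.78, 2.79 and 2.86 in serum to 4.53, 4.66 and 4.46 at 24 h and 5.27, 5.19 and 5.12 at 72 h. Its change was 2.39 at 72 h (SE 0.10, adjusted p = 1.17e-08), and no library of serum overlapped 2i. Slc12a7 had lost 18 of 20 and rose by 1.68 at 72 h (SE 0.21, adjusted p = 6.12e-05), while its change at 24 h was 0.45 (adjusted p = 0.0826).

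**Figure D5:**
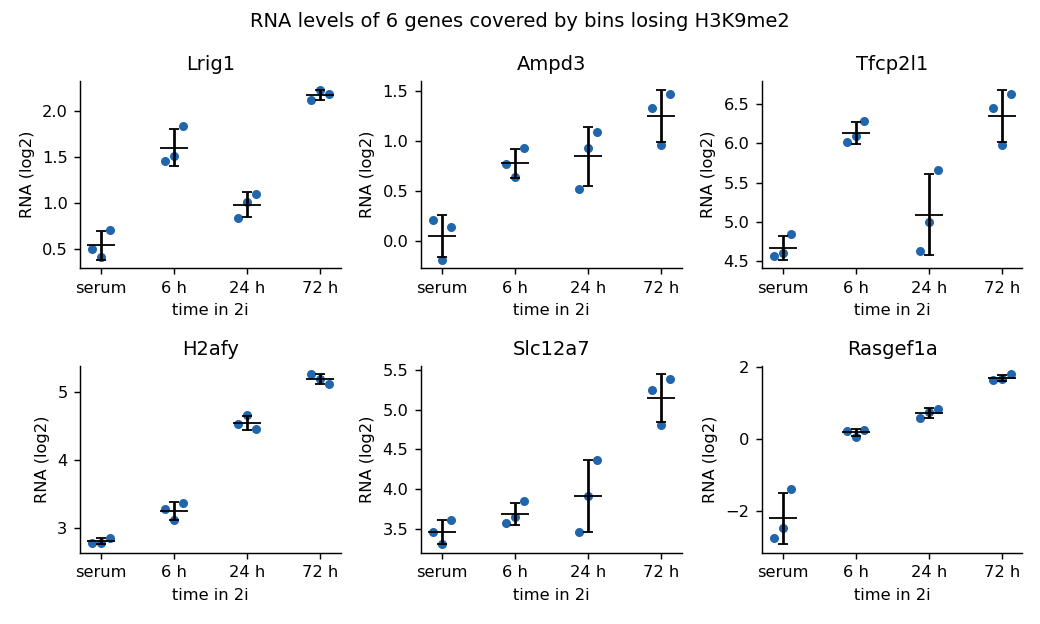
RNA level (deposited log2 value) of 6 genes in which most eligible bins lost H3K9me2, in serum and at 6, 24 and 72 h of 2i. Points are the 3 libraries of each group, and bars give the mean with its SD. All 6 genes were higher at 72 h than in serum, by 1.20 in Ampd3 to 3.92 in Rasgef1a, and Tfcp2l1 at 24 h overlaps serum.

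Genes of H3K9 methylation were themselves followed. Of 11 rows of writers and their partners tested, 6 were lower and 0 higher at 72 h, of 9 erasers 2 were lower and 0 higher, and of 7 readers 4 were lower and 0 higher, against backgrounds of 26% lower and 24.5% higher. At 24 h, 6 writers were lower and 1 higher, 6 erasers were lower and 0 higher, and 4 readers were lower and 0 higher, against 29.1% lower and 33.6% higher. Ehmt1 was at 3.65, 3.63 and 3.80 in serum and 2.34, 2.01 and 2.52 at 72 h (log2 change -1.41, SE 0.18, adjusted p = 6.44e-05), and Ehmt2 changed by -1.11 (SE 0.12). Uhrf1 changed by 0.07 (SE 0.11, adjusted p = 0.623). Several of these genes held member bins. The demethylase gene Kdm4b had lost 7 of 8 eligible bins with RNA changes of -0.84 at 24 h (adjusted p = 0.00129) and -0.17 at 72 h (adjusted p = 0.425), and Phf2, also an H3K9 demethylase gene, 15 of 24 with a change of 0.20 (adjusted p = 0.587). Wiz, a partner of EHMT1 and EHMT2, had lost 3 of 4, Kdm4a 2 of 2, Ehmt1 2 of 16, Zfp644 2 of 67, Setdb1 and Kdm1a their only eligible bin, and Cdyl 1 of 50. Kdm4d had lost 0 of 9, Atf7ip 0 of 7 and Kdm4c 0 of 6, and Suv39h2, Kdm3a, Jmjd1c and Setdb2 kept their only eligible bin. Ehmt2, Trim28 and Uhrf1 were among the genes with no eligible bin. Of all autosomal genes, 21.1% overlapped a member bin.

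Bins that were already lower at 24 h, the 3074 with a fall of 1 or more from serum, overlapped 1061 tested genes. At 24 h itself 317 of these genes were higher (29.9%, background 33.6%) and 364 lower (34.3%, background 29.1%). At 72 h 375 were higher (35.3%, background 24.5%) and 203 lower (19.1%, background 26%). These shares lie within 3 percentage points of those of all genes that overlap a member bin, which were 32.1% and 33.4% at 24 h and 34.4% and 21.7% at 72 h. The serum values that chose these bins also set part of the fall. Ttc28 held 13 of them, Baz2b 11, and Foxn3, Lrig1 and Ralgps1 9 each.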

How the data were processed

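H3K9me2 ChIP-seq (6 bound and 3 input libraries) and RNA-seq (12 libraries) of E14 ESCs were used, and the other 59 of 80 samples, bisulfite libraries on another genome build, were not used here. For ChIP-seq the authors deposited log2 scaled reads per 2-kb bin of GRCm38, every library brought to the depth of the deepest one. The values themselves show that empty bins carry 0.9 reads, that the rest are whole reads within 2%, and that every input reached 3 in each listed bin. The RNA-seq values deposited by the authors are log2 levels of genes after length and depth correction, with a 75th percentile of 2.51 in each library. Trim Galore 0.3.5, TopHat2 2.0.11 and Bowtie2 stand in the submitters' processing notes, with no role given. All per-sample columns were used.

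Groups came from the sample titles. The bins, gene lists and alternatives were chosen with earlier results of these data known. Bins used the means of 2 libraries, and since the rule used serum and LT2i and each condition had 1 input, no test was run on ChIP-seq. The 12 RNA-seq libraries entered one limma fit (limma 3.58.1 in R 4.3.3, trend, Benjamini-Hochberg adjustment) over the 11376 genes with a mean of 0 or more, called at adjusted p under 0.05. On simulated data for 72 h against serum (11376 genes), 72 of 100 genes changed by 1 and 97 of 100 changed by 2 were recovered, with 18 false calls. The simulated libraries had independent noise with 1 spread per gene over all groups, and few genes changed. In the real data 50.5% of genes were called at 72 h, so these counts need not hold there. The labels do not say whether replicates were separate cultures, so p-values measure only the spread between these libraries. The study calls the replicates of an expression time course biological without naming the assay there. Gene spans came from the RNA table, start windows from RefSeq (GRCm38.p6). Named genes were the 10 with most member bins and ties, the 8 largest rises and falls at 72 h among called genes overlapping a member bin, the 8 largest changes of 1 or more among called genes with a start within 5 kb, and H3K9 methylation genes. Named bins were the 10 largest differences, the 5 longest runs with ties, and 3 bins on each side of each threshold. Tables were made with Python 3.11.15, pandas 2.3.3 and numpy 2.4.6. Alternatives covered the thresholds, scaling, inputs, pseudocount, filter, replicate block and single libraries.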

Additional observations from a re-analysis of the deposited data

Results flagged for a closer look

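On chromosome X, which the rule left out, 100 of 7321 eligible bins (1.37%) met the same thresholds, while 0 of 6355 bins met them in the inputs.

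For 26 named genes whose spans overlap member bins, the RNA change at 72 h differed from that at 24 h. The limma fit was used, at adjusted p under 0.05. Many of these genes were named for a large change at 72 h or after their values were seen, which sets part of this difference. The count has no share over all genes tested beside it and is a description only. The 72 h value was lower than the 24 h value by -2.19 in Trh, -2.06 in Dnmt3l, -1.71 in Celf4, -1.49 in Zfp423, -1.38 in Phf15, -0.64 in Tbc1d16 and -0.39 in Etv4 (log2, 72 h minus 24 h). It was higher by 3.27 in Dmgdh, 2.21 in Lrrc15, 2.06 in Aqp3, 1.81 in Stra8, 1.55 in Gstm3, 1.43 in Mobp, 1.32 in Gpr56, 1.30 in Cdx1, 1.26 in Tfcp2l1, 1.23 in Slc12a7, 1.19 in Fxyd2 and 1.19 in Lrig1. Smaller differences were 0.98 in Rasgef1a, 0.70 in Fam53b, 0.67 in Kdm4b, 0.66 in Slc39a11, 0.66 in Setdb1, 0.64 in H2afy and 0.61 in Gm20388. The member bins under the span of Gm20388 cannot be assigned to it.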

How the results depend on the processing

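The number of bins followed the thresholds: 46182 with a difference of 1.5 or more, 11045 with 2.5 or more, 2326 with a serum mean of 5 or more and 7790 when both serum libraries had to exceed both LT2i libraries by 2. It was 17790 to 29920 under the other alternatives, that is, with single libraries left out, centring, input subtraction or a pseudocount of 1. The minimum of 2 on the inputs removed no bin. The median 24 h change of -0.43 was -0.18 and -0.34 against the serum library that had not chosen the bins. Genes overlapping a member bin numbered 5164, those with a start within 5 kb 2126. Leaving out spans over 1 Mb, added after seeing the data, gave 5137.

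The calls at 6, 24 and 72 h over all genes tested (1621, 7131 and 5743) ranged from 407 to 1591, 3968 to 8014 and 3087 to 6592 when 1 replicate number was left out, which leaves 2 libraries a group. For genes overlapping a member bin the ranges were 103 to 403 higher and 38 to 129 lower at 6 h, 605 to 973 and 528 to 1087 at 24 h, and 677 to 1035 and 249 to 739 at 72 h. With an absolute change of 1 or more, all calls were 463, 2850 and 2038, and those overlapping were 123 higher and 44 lower at 6 h, 375 and 398 at 24 h, and 458 and 198 at 72 h. With only the 6 libraries compared, calls at 6 h were 3239, of which 700 higher and 309 lower overlapped. Without the filter on low values 1498 of 5164 overlapping genes were higher and 776 lower at 72 h, beside 7849 calls among all 25965 genes. The causes of these shifts were not tested. Of 61 named genes with a value at 72 h, 55 kept sign and call under every alternative and 6 did not (Rptor, Setdb1, Atf7ip, Cdyl, Wiz and Tbc1d16).

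Replicate numbers did not establish pairs: 15 of 18 same-numbered pairs correlated above 0.1, over a range of -0.32 to 0.85. Pairs with different numbers ran from -0.90 to 0.79. Pairs of libraries numbered 3 all lay at 0.47 to 0.85, so these libraries deviated together, and the main fit had no term for this. With the replicate block, the same calls were 2234, 8053 and 6786, and overlapping genes at 72 h were 1107 higher and 758 lower. With 2 bound libraries and 1 input a condition, ChIP-seq values of single bins rest on few reads.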
